A study of Mus musculus with 4 samples.

Results

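The epidermal growth factor (EGF) receptor family was followed through 10 genes in mouse back skin: the ligands Egf, Tgfa, Areg, Ereg, Hbegf and Btc, the receptors Egfr, Erbb2 and Erbb3, and the receptor inhibitor Errfi1. The members were all non-control probes whose gene name in the scanner files was one of these 10, which gave 23 of the 41174 probes on the array and 10 of 28034 genes. The study asked which genes depend on Fgf18, a secreted fibroblast growth factor, while hair follicles rest. The group called cKO below consisted of C57BL/6 mice in which Fgf18 was deleted in keratin 5-positive epithelium, and the group called WT consisted of C57BL/6 mice. All mice were males aged 42 days, and their full-thickness back skin was labelled telogen, in which hair follicles rest. For each group, polyA RNA of 3 mice was pooled, and the pool was hybridised to 2 one-colour arrays from 200 ng RNA. The driver of the deletion is not named in the labels, and no control carrying it or the floxed allele is listed there. Each group was 1 pool, so every SD, SE and p-value below measures the spread between 2 technical duplicate arrays. The tests compare 2 pools and not the genotypes.

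Ligands of this family are made as membrane-anchored precursors and are released by proteases of the ADAM group. Egfr binds Egf, Tgfa and Areg, among others, while Erbb2 has no known soluble ligand and Erbb3 has a nearly inactive kinase, so that both signal as partners of other receptors. Bound receptors pass the signal through adaptors to Ras and a chain of kinases that ends in ERK, which switches on transcription factors and feedback inhibitors. In skin the pathway is known for its part in keratinocyte growth and in the hair cycle, and loss of Egfr disturbs hair growth in mice.

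The signal of each spot was divided by the 75th percentile of its array, which was 1402.7 and 1453.4 in cKO and 1271.5 and 1315.6 in WT, and log2 was taken. Between 62.1% and 69.1% of spots were well above background, a mark set by the scanner software, and none was saturated. Duplicates correlated across genes at 0.997 (cKO) and 0.996 (WT), against at most 0.964 between pools. Fgf18 itself had a log2 difference of -0.33 (limma adjusted p = 0.0035), and the labels do not say whether its probe lies in the deleted part. Of the markers of the targeted epithelium, Krt5 had -0.09 and Krt14 had 0.31, and neither was called. The 6 basal epithelium markers, with Krt5 and Krt14 among them, had 0 calls and a median log2 difference of -0.08. Their summed scaled signal was 325 to 331 in cKO and 322 to 340 in WT. All 8 markers of growing hair matrix and shaft were higher in cKO, and their summed scaled signal was 211 to 213 in cKO and 1.25 on both WT arrays, which goes against a telogen label for the cKO pool. The 5 melanocyte markers tested were also higher, with a summed scaled signal of 14.1 to 14.3 in cKO and 8.70 to 8.76 in WT. Of 6 skeletal muscle markers 3 were lower, with a summed scaled signal of 616 to 617 in cKO and 873 to 911 in WT. Sebaceous gland markers (1 of 4 tested lower) summed to 110 to 114 against 182 to 200 in WT, nerve and Schwann cell markers (2 of 4 lower) to 6.29 to 6.44 against 9.65 to 9.69, and endothelial markers (2 of 6 lower) to 6.00 to 6.02 against 8.81 to 8.83. Of 6 adipocyte markers 2 were lower, but their summed scaled signal was 223 to 224 in cKO and 214 to 215 in WT. Of 6 fibroblast markers 1 was lower, with sums of 764 to 766 in cKO and 828 to 909 in WT. Of 6 differentiated epidermis markers 0 were called, with sums of 492 to 499 in cKO and 585 to 628 in WT. Among all genes tested, 5.67% were called higher and 4.81% lower by the rule given below. The part of the cell types named here in the differences below was not tested. In whole skin, fewer cells of a type and less RNA per cell cannot be told apart.

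Errfi1 and Hbegf rose in cKO, and no member was called lower, although Egf and Btc lay below WT on both cKO arrays. Errfi1, which binds the kinase domain of EGF receptors and shuts it off, was 2.50-fold higher, and the ligand Hbegf was 1.62-fold higher. The receptors Egfr, Erbb2 and Erbb3 were within 1.19-fold of WT at their brightest probes. A call needed both a limma adjusted p under 0.05 and a size of 1.5-fold or more. By this rule 2 of 10 members were called higher and 0 lower, while among all 17553 genes tested 5.67% were called higher and 4.81% lower. At an unadjusted limma p under 0.05 and any size, 4 members were higher and 2 lower, against 62.6% of all genes in either direction. By adjusted p alone 5 of 10 members passed, against 55.8% of all genes, so the share of members that passed was near the background. The median log2 difference was 0.12 over the members and -0.05 over all genes. All 10 genes passed the filter on dim probes, Areg only through the cKO arrays. Ereg passed only through a probe whose position goes against its name. Areg is among the 4 members counted higher at the unadjusted p, and both enter the median. Of 23 probes 21 passed, the Areg probe and the second Tgfa probe only through the cKO arrays. Signals of different probes depend on the probe and are not compared with each other.

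**Figure D1:**
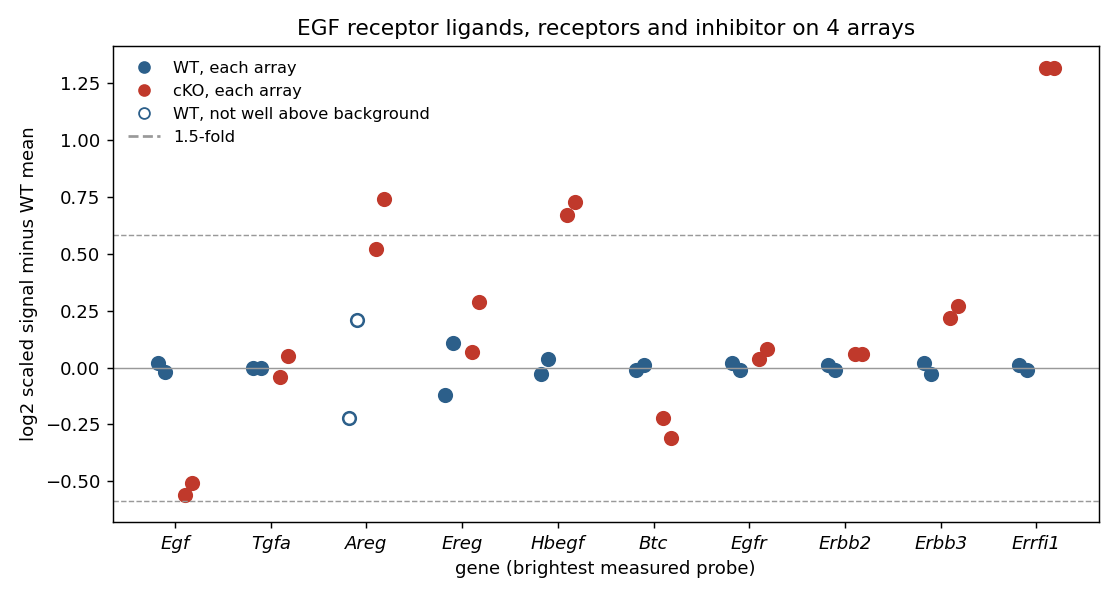
The y axis gives the log2 scaled signal of each array minus the mean of the 2 WT arrays, at the brightest measured probe of each gene on the x axis. Points are single arrays, open points are Areg in WT, which was not well above background, and dashed lines mark 1.5-fold. Errfi1 and Hbegf of both cKO arrays lie above the upper line, and Egf of both lies just inside the lower one.

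Hbegf, the heparin-binding ligand of Egfr and Erbb4, is shed from keratinocytes and is known from wound closure. It had 1191 and 1281 in cKO and 661 and 720 in WT. Both cKO arrays were above both WT arrays, and the nearest arrays of the pools lay 0.63 log2 units apart after scaling, against 0.07 at most between duplicates. The log2 difference was 0.70 (SE 0.041, limma adjusted p = 0.0024). Its single probe (NM_010415) lies on the minus strand at chr18:36664738-36664797 of mm9, at base 2158 of the transcript.

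Egf, the founding ligand of the family, had a signal of 954 and 1021 in cKO and of 1289 and 1298 in WT. Both cKO arrays were below both WT arrays. The log2 difference of -0.53 (SE 0.032, limma adjusted p = 0.0025) was 1.45-fold in size and missed the fold threshold, so Egf was not called. Its probe (NM_010113) is printed at 10 places on each array, which allows a look at the spots. The 10 spots ran from 890.7 to 1000 and from 949.7 to 1080 in cKO, and from 1237 to 1345 and from 1176 to 1356 in WT. No cKO spot reached the lowest WT spot. These spots share 1 pool and 1 array, and they are not replicates of the genotype.

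Areg encodes amphiregulin, a ligand of low affinity for Egfr that keratinocytes make in growth. Its signal was 59.2 and 71.3 in cKO and 32.1 and 44.8 in WT. The probe (NM_009704, chr5:91570090-91570149 of mm9, plus strand) was well above background on both cKO arrays and on neither WT array. The pools did not overlap, but the WT duplicates lay 0.43 apart and the pools 0.31. A bound on the fold was computed with WT set to the dimmest signal that still counted as well above background. Where the probe's own WT signal was higher, that signal was used. For Areg the bound was 1.52-fold, but it leaves out the spread between arrays and is no firm minimum. The fitted log2 difference was 0.63 (SE 0.19, limma adjusted p = 0.060), and Areg was not called. The adjusted p crossed the threshold with an intensity trend and robust moderation (limma adjusted p = 0.039) and without WT replicate 2 (limma adjusted p = 0.032), where the lone WT array is assumed to vary like the cKO pair. Since the probe passed the filter only through the cKO arrays, these values describe it and support nothing. Over the alternatives that kept it the limma adjusted p ran from 0.016, where the log2 difference was 0.32, to 0.21.

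Btc, which encodes betacellulin, a ligand of Egfr and Erbb4, had a signal of 519 and 506 in cKO and of 544 and 573 in WT. After scaling both cKO arrays lay below both WT arrays, with a log2 difference of -0.27 (SE 0.042, limma adjusted p = 0.014), under the fold threshold. A second Btc probe was not well above background on any array, with signals from 4.18 to 8.80. Tgfa, the ligand whose loss gives mice wavy hair, had a log2 difference of 0.0024 (SE 0.040, limma adjusted p = 0.96) at its brightest probe, and the pools overlapped. That probe is printed 10 times, and the medians of its usable spots were 67.2 and 73.8 in cKO and 62.2 and 61.3 in WT. The scanner software marked 3 spots as outliers, which were left out, at 579.3 and 101.1 on the WT arrays and at 82.0 on cKO array 1. The second Tgfa probe gave 156 on cKO array 1 and 30.3 on cKO array 2, against 35.9 and 49.9 in WT. Its log2 difference of 0.56 therefore had an SE of 0.95 and rests on cKO array 1. Without cKO replicate 2 it was 1.76, and without cKO replicate 1 it was -0.65. The probe was well above background on both cKO arrays but on only 1 WT array. It passed the filter only through the cKO arrays, so these values describe it and support nothing.

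Ereg, which encodes epiregulin, was represented by a probe whose position goes against its name. The kept probe (AK019057) had a signal of 103 and 124 in cKO and of 81.9 and 99.0 in WT, with a log2 difference of 0.19 (SE 0.12, limma adjusted p = 0.27). It lies on the opposite strand to the probe of the Ereg reference transcript (NM_007950), with 40685 bases between them. The NM_007950 probe was not well above background on any array, with signals from 18.9 to 19.8. The name Ereg on the first probe comes from the scanner files, and no level above background was measured for NM_007950 in either pool.

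The receptor Egfr is measured by 6 probes, and they did not move alike. The brightest probe (NM_207655) had a signal of 9047 and 9637 in cKO and of 8081 and 8195 in WT. Its log2 difference was 0.06 (SE 0.029, limma adjusted p = 0.19), and the mean of all 6 probes gave -0.08. It was 0.14 under quantile normalization (limma adjusted p = 0.029) and 0.13 under normexp and quantile normalization (limma adjusted p = 0.041). Both stayed under the fold threshold. The scaled values of the pools did not overlap, but the gap of 0.02 between them was smaller than the 0.04 between cKO duplicates. The probe at base 2401 of NM_007912 lay lower in cKO, with 1474 and 1541 against 1942 and 1984 in WT. Its log2 difference was -0.52 (SE 0.026, limma adjusted p = 0.0028 over 26068 probes), or 1.44-fold, under the fold threshold. The other probe listed under NM_007912, at base 2088, had 934 and 937 in cKO and 1005 and 1072 in WT, a log2 difference of -0.29. Whether its bases also occur in NM_207655 was not analysed here, so it is not taken as a second measure of NM_007912 alone. The second NM_207655 probe and the AK033431 probe had 0.15 and 0.16, and the AK049452 probe had -0.01 with overlapping pools. Of the 21 member probes tested, 2 were called higher and 0 lower by limma, against 4.92% and 4.80% of all probes. At an unadjusted limma p under 0.05 and any size, 6 of them were higher and 4 lower, against 58.8% of all probes in either direction. The 6 include the Areg probe, which passed the filter on dim probes only through the cKO arrays. Under both accessions a probe printed at 10 places is listed, and the first 30 of 60 bases are shown because these 2 probes gave different values:
Egfr NM_007912 chr11:16787385-16787444: caagaggttaacactacggactagccattc
Egfr NM_207655 chr11:16813815-16813874: gttgcaagccactctaactgtagcaatgaa

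Both lie on the plus strand of mm9 with 26370 bases between them. As background, NM_207655 is the long Egfr transcript, which codes for the whole receptor, and NM_007912 is a shorter one that ends before the kinase. The NM_007912 spots ran from 1438 to 1550 and from 1485 to 1640 in cKO and from 1888 to 1980 and from 1912 to 2043 in WT, so the lowest WT spot was above the highest cKO spot. The NM_207655 spots ran from 8679 to 9387 and from 9219 to 9936 in cKO and from 7590 to 8399 and from 7681 to 8469 in WT, apart before scaling and overlapping after it. Each probe was also tested against the other probes of its gene (limma diffSplice, 14678 probes of 6165 genes, chosen after the Egfr values were seen). The NM_007912 probe at base 2401 differed from the other Egfr probes by -0.54 on the log2 scale (adjusted p = 0.00084), the one at base 2088 by -0.26 (adjusted p = 0.039), the AK033431 probe by 0.29 (adjusted p = 0.025) and the NM_207655 probe at base 4235 by 0.27 (adjusted p = 0.032). The remaining Egfr probes did not pass. Such a difference is common here, since 22.3% of all probes tested passed. Without cKO replicate 1 the first of them had -0.53 and an adjusted p of 0.057, the highest over the alternatives, which otherwise ran from 4.9e-06 to 0.0471. Which exons of the mm9 gene these probes lie in was not analysed here.

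**Figure D2:**
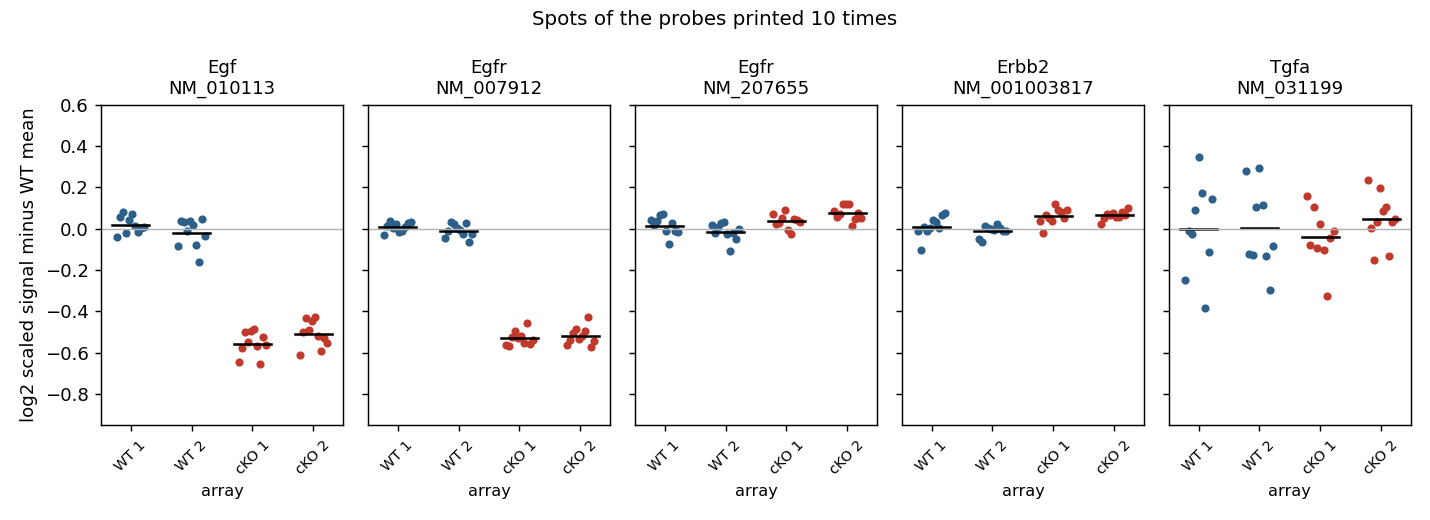
Each panel shows a member probe printed at 10 places, with the log2 scaled signal of every usable spot minus the WT mean on the y axis and the 4 arrays on the x axis, and black lines at the array means. The Egf and Egfr NM_007912 spots of both cKO arrays lie apart from the WT spots, while those of Egfr NM_207655, Erbb2 and Tgfa overlap them.

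Erbb2 and Erbb3, the signalling partners of the family, were near WT. Erbb2 had a signal of 1944 and 2019 in cKO and of 1702 and 1735 in WT, with a log2 difference of 0.06 (SE 0.024, limma adjusted p = 0.10), and -0.00462 with the mean of both probes. Its second probe had 129 and 120 in cKO and 118 and 119 in WT, a log2 difference of -0.07 with overlapping pools. The brightest Erbb3 probe (BC049279) had 6578 and 7042 in cKO and 5204 and 5180 in WT. Both cKO arrays lay above both WT arrays, and the log2 difference of 0.25 (SE 0.036, limma adjusted p = 0.012) was 1.19-fold. With the mean of its 5 probes the log2 difference was 0.07 (limma adjusted p = 0.62). The other 4 Erbb3 probes had log2 differences from -0.30 to 0.47, none with an adjusted p under 0.05, and no Erbb3 probe differed from the others of its gene in diffSplice.

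The receptors resemble each other in the kinase part, so it matters which letters a probe reads. The 60-base probes of Erbb2, Erbb3 and Erbb4, the neuregulin receptor, read the same stretch of the kinase and are shown for this, with capitals where Erbb4 and Erbb3 have the base of the Erbb2 probe in an alignment without gaps:
Erbb2 NM_001003817 chr11:98295824-98295883: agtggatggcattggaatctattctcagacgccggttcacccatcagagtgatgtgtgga
Erbb4 NM_010154 chr1:68125116-68125175: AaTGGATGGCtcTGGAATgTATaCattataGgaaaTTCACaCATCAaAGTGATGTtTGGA
Erbb3 NM_010153 chr10:128009195-128009254: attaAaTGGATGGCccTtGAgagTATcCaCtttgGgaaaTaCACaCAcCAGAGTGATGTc

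The Erbb4 probe matched the Erbb2 probe at 42 of 60 bases (70.0%), and the Erbb3 probe at 35 of 56 aligned bases (62.5%). The Erbb2 and Erbb3 probes of this set had log2 differences of -0.07 and -0.01. The Erbb3 stretch is read by a second probe, shifted by 20 bases, and the pair is shown because the probes share 40 bases, in capitals, and gave different values:
Erbb3 base 2596: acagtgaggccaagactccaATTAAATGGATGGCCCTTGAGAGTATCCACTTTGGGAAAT
Erbb3 base 2616: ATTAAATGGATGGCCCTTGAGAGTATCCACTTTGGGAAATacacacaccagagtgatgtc

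The probe at base 2596 had 292 on cKO array 1, 118 on cKO array 2, and 118 and 126 in WT. The overlapping probe at base 2616 had 231 and 242 in cKO and 209 and 222 in WT. The log2 difference of 0.47 (SE 0.52) at base 2596 thus rests on cKO array 1, and it was 1.14 and called without cKO replicate 2, and -0.21 without cKO replicate 1.

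**Figure D3:**
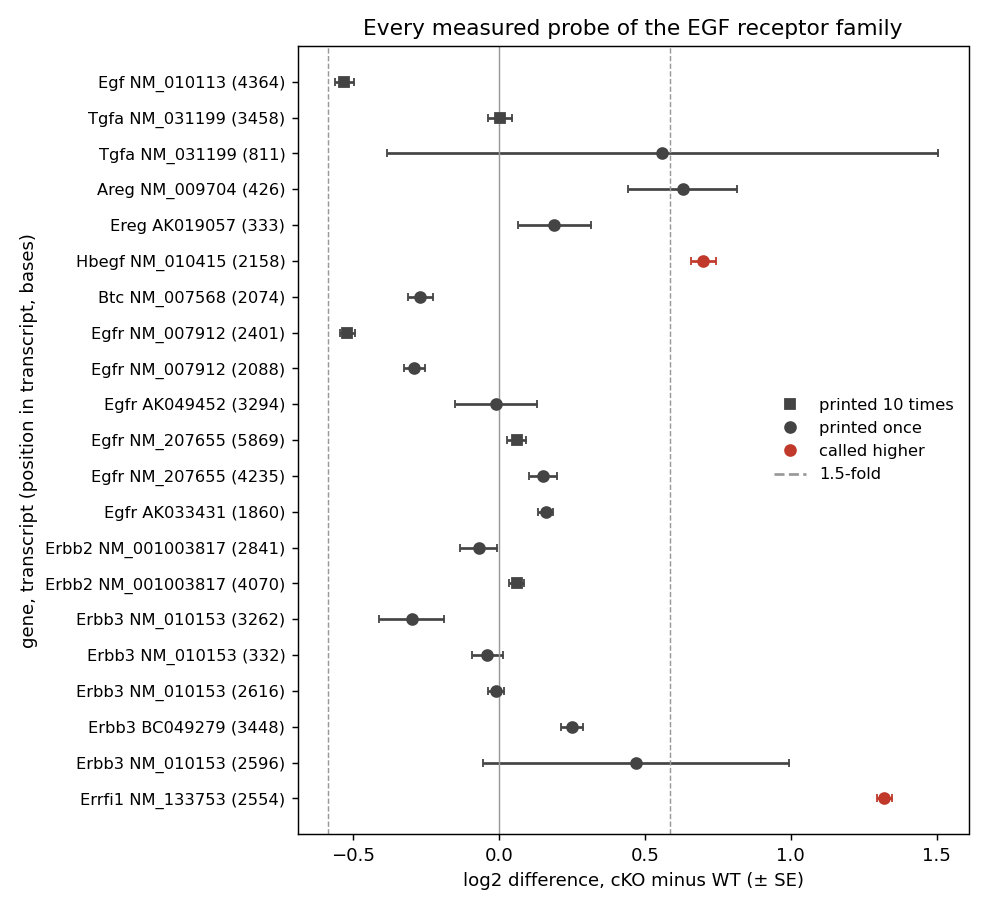
The x axis gives the log2 difference between cKO and WT with its SE for the 21 member probes that passed the filter, listed on the y axis by gene, transcript and position. Squares are probes printed 10 times, red points are called, and dashed lines mark 1.5-fold. The 6 Egfr probes run from -0.52 to 0.16, and the wide bars of Tgfa and Erbb3 belong to probes whose cKO duplicates disagree.

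Errfi1 is a feedback gene of the pathway, switched on by receptor signalling, and it had the largest difference of the 10 members. Its signal was 14888 and 15460 in cKO and 5438 and 5546 in WT. The nearest arrays of the pools lay 1.31 log2 units apart after scaling, against 0.02 at most between duplicates. The log2 difference was 1.32 (SE 0.023, limma adjusted p = 0.00053), and it ran from 1.31 to 1.42 over the alternatives. The probe (NM_133753) lies on the plus strand at chr4:150242526-150242585 of mm9, at base 2554 of the transcript. Its first 30 of 60 bases are shown because this 1 probe carries the result:
Errfi1 NM_133753: ctattcagtatttcctggggattgtttgct

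The RefSeq promoter table (GRCm38.p6) held 7 of the members, and the promoters of Ereg, Hbegf and Erbb3 were not analysed here. The 250 bases before each start were searched for 13 motifs on both strands, and a match is a description of letters only. Errfi1 (at the second of its start sites) and Areg held the cAMP response element TGACGTCA, which CREB and ATF factors bind, and downstream of it a TATA box (TATAAA). They are shown because no other member in the table held either motif; both are in capitals:
Errfi1 chr4:150854820-150855069: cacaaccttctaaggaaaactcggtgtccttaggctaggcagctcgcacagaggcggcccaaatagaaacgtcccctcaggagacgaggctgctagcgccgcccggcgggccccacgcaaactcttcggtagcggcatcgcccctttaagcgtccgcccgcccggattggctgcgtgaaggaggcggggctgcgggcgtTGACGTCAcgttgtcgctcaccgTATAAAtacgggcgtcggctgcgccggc
Areg chr5:91139349-91139598: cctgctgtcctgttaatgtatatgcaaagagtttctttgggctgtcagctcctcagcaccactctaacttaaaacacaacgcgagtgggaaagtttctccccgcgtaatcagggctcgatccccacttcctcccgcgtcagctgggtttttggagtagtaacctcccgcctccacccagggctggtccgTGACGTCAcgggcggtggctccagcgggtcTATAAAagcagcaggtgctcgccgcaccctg

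Both are on the plus strand. In Errfi1 the response element began 51 bases before the start and the TATA box 28 bases before it, and in Areg they began 61 and 31 bases before it. Of 32851 promoters of the same length, 1.55% held TGACGTCA, 12.4% held TATAAA and 0.119% (39 promoters) held both. The GC box GGGCGG (32.7% of promoters) was found in Tgfa, Areg, Egfr and Errfi1, CCAAT (33.8%) in Erbb2 and Errfi1, GGGTGTG (6.93%) in Egf and Btc, and the ETS site CCGGAAGT (2.88%) in Egf. The AP-1 site TGANTCA (6.75%), CTTTGAT (3.21%), CTTTGAA (4.46%), TTCNNNGAA (7.02%), CACGTG (6.02%), GCGGGGGCG (2.57%) and GAANNTTC (6.69%) were in no member promoter of the table. The matches in capitals do not overlap each other, whereas some GC box matches in Errfi1 do.

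The rest of the pathway was read through 6 lists with 76 genes, of which 73 were tested. At an unadjusted limma p under 0.05 and any size, 26 were higher and 20 lower, against 62.6% of all genes in either direction. The 26 include Nrg1 and a gene for ligand shedding, which passed the filter on dim probes only through the cKO arrays. By the call rule 3 were higher and 1 lower, against 5.67% and 4.81% of all genes, and the median log2 difference was 0.01. One of the 3, Nrg1, passed the filter on dim probes only through the cKO arrays, so its call is given as a description. Among the other ErbB ligands and the receptor Erbb4, Epgn was called higher besides Nrg1, and 0 of the 4 tested genes were called lower. Epgn, which encodes epigen, a ligand of Egfr, had 902 and 965 in cKO and 294 and 330 in WT. It rose by a log2 difference of 1.44 (SE 0.054, limma adjusted p = 0.0014), or 2.72-fold, and both cKO arrays were far above both WT arrays. Nrg1, a ligand of Erbb3 and Erbb4, had 53.9 and 21.5 in cKO and 7.18 and 8.55 in WT, where it was not well above background. These values are from 1 of 5 Nrg1 probes (AK052414), and the other 4, among them all 3 of NM_178591, were not well above background on any array. It was called (limma adjusted p = 0.0498; 0.055 in the fit of every probe), but no fold is given because the bound was under 1, and the call was lost with normexp and quantile normalization, with no filter on dim probes, with the mean of probes and without either WT array. Nrg4, another ligand of Erbb4, had a log2 difference of -0.44 (SE 0.027) and was not called. Erbb4 had 148 and 25.5 in cKO and 6.72 and 52.4 in WT, so that the duplicates differed more than the pools. Nrg2 and Nrg3 did not pass the filter on dim probes.

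Of 10 genes for ligand shedding 0 were called by limma, with a median of -0.06. At an unadjusted limma p under 0.05 and any size 4 were higher and 5 lower. The 4 include a gene that passed the filter on dim probes only through the cKO arrays. The brightest were Timp3, an inhibitor of sheddases, at -0.20, and the protease Adam15 at 0.18. Under quantile normalization they had -0.07 and 0.32. Of 16 receptor brakes and turnover genes 0 were called, with a median of 0.08; by the same unadjusted p 7 were higher and 1 lower. Lrig1 and Lrig3, membrane proteins that act on receptor levels, had log2 differences of 0.25 and 0.37. Among 17 adaptors and effectors 0 were called higher and 1 lower, with a median of -0.05. The lower one was Plcg1, the phospholipase recruited by active receptors, with 184 and 209 in cKO and 333 and 312 in WT. Its log2 difference was -0.86 (SE 0.078, limma adjusted p = 0.0047). A second Plcg1 probe had 0.16, and with the mean of both probes the log2 difference was -0.35 and the call was lost. Akt1 and Ptpn11, the brightest of that list, had 0.0033 and -0.10, and their signs turned under several alternatives. By the unadjusted limma p 4 genes of that list were higher and 7 lower.

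Of 10 Ras and ERK kinases 0 were called, and by the unadjusted limma p 2 were higher and 1 lower. Hras, a Ras protein, had a log2 difference of -0.03, which turned to 0.11 under quantile normalization. Of 16 ERK response genes tested 1 was called higher and 0 lower, with a median of 0.04. That gene was Etv4, an ETS factor, with 774 and 810 in cKO and 200 and 217 in WT. It rose by a log2 difference of 1.78 (SE 0.034, limma adjusted p = 0.00059). Dusp6, the ERK phosphatase, and Phlda1 had 0.22 and 0.15 and were not called. By the unadjusted limma p at any size, 7 genes of this list were higher and 5 lower.

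**Figure D4:**
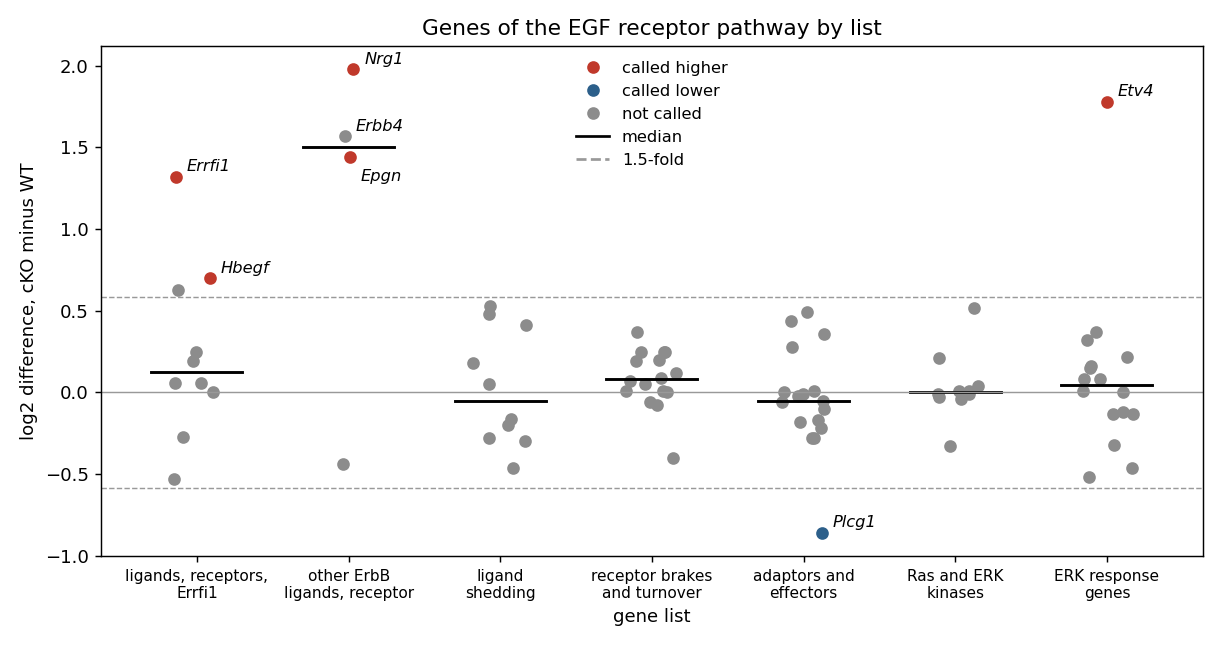
The y axis gives the log2 difference between cKO and WT for each gene tested, grouped on the x axis by list, with a black line at the list median and dashed lines at 1.5-fold. Called genes are coloured and named, and Erbb4 is named although not called. Outside the members, 3 genes lie above the upper line and are called, and Plcg1 is the 1 called below the lower line.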

How the data were processed

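The authors deposited scanner intensity files of 4 one-colour Agilent arrays, read with Agilent software (Feature Extraction 10.7.3.1) that subtracted background and detrended each array, per the file headers, and processed values found to be a linear ratio of that intensity to 1 number per array. All arrays share 1 slide and 1 scan time. Log2 processed signal minus the array's 75th percentile was used; spots flagged as non-uniform or outliers were left out, and spots of a probe averaged. A probe was kept if well above background on both arrays of a group, and a gene took its brightest kept probe. Names were updated through RefSeq (GRCm38.p6); probe coordinates are mm9. limma 3.58.1 in R 4.3.3 (lmFit, eBayes, two-sided, Benjamini-Hochberg over all genes, or all probes) compared the pools. The fit and the call rule were also run on simulated arrays with known changes and the spread of these duplicates. Such a run cannot show how far 1 pool stands for its genotype. Members and lists were chosen with earlier results of these data known. Named besides the 10 members were, per list, every called gene up to 6 and the 2 brightest not called, with Fgf18, Krt5 and Krt14; 1 gene the rule selects is not reported here. Python 3.11.15 made the figures.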

Additional observations from a re-analysis of the deposited data

How the results depend on the processing

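Over 14 alternatives, 4 of which leave out an array, Errfi1, Hbegf, Epgn and Etv4 were called higher throughout, and no member was called lower. Areg, Nrg1, Erbb4 and the second Tgfa probe were not tested where all 4 arrays had to be well above background. They passed the main filter only through the cKO arrays. Deviations of same-numbered arrays correlated at -0.043, so the numbers do not pair arrays; with the replicate block 3 members were called higher, Areg added (limma adjusted p = 0.026), and the call of Nrg1 was lost (limma adjusted p = 0.079). Leaving out each array gave 2 to 3 members called higher, 2 to 4 member probes called higher, and 1 to 2 other pathway genes called lower; with the mean of probes 0 of the latter were. Signs turned for differences that the main fit did not call, most of them near 0. Tgfa had -0.01 with normexp and quantile normalization, -0.000177 with median scaling and -0.00101 with the authors' values. It had -0.18 with outlier spots kept, and -0.04 to 0.05 without single arrays. With the mean of probes Egfr had -0.08, Erbb2 -0.00462 and Akt1 -0.17; Akt1 had -0.000167 with the authors' values and -0.01 to 0.02 without single arrays. Under normexp with quantile normalization, and under quantile normalization alone, Ptpn11 had 0.02 and 0.04 and Hras 0.10 and 0.11; Krt5 had 0.00184 under the first. The AK049452 probe of Egfr had 0.01 under quantile normalization and -0.19 to 0.17 without single arrays. Without single arrays the second Tgfa probe ran from -0.65 to 1.76 and the Erbb3 probe at base 2596 from -0.21 to 1.14. Both were highest without cKO replicate 2. That Tgfa probe, counted above among the calls without single arrays, passed the filter only through the cKO arrays. Over all genes, 479 were called lower under normexp and quantile normalization against 845, and 5173 passed by adjusted p with no filter on dim probes, 5690 without cKO replicate 1 and 5866 without cKO replicate 2, against 9795. The causes were not tested. The 2 arrays a pool and signals near background, as for Areg, Tgfa, Nrg1 and Erbb4, limit the precision.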

Other observations

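Several pathway probes were bright on 1 array of a pool only. Besides the Tgfa and Erbb3 probes described above, an Erbb4 probe (NM_010154, base 1104) had 117 on cKO array 1 and 3.88 on cKO array 2, and another (base 3402) had 57.4 on WT array 2 and 6.93 on WT array 1. Over all 26063 kept probes with a value on each array, 258 differed by more than 1 log2 unit between the cKO duplicates (218 of them higher on array 1) and 353 between the WT duplicates (219 of them higher on array 2).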
